A study of Homo sapiens with 6 samples.

Results

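Keratins, cadherins, catenins, claudins, desmosomal proteins and the transcription factors that maintain or dismantle epithelial structure were examined as 1 set of 52 genes in the breast cancer cell line MDA-MB-453, an established human line. The 52 genes were taken by symbol from the 60569 gene names of the RNA-seq table, all 52 were found, and none had more than 1 row. They were divided by function into 12 classes. RNA was measured in 6 libraries: 3 from cells transfected with a control vector and 3 from cells transfected with a construct that overexpresses ZNF207, a zinc finger protein that works with BUB3 in chromosome segregation. All libraries come from this single cell line, the design text calls the 3 libraries of a group independent biological replicates, and the time between transfection and harvest is not given in the sources used here. No separate purpose is stated for these genes, and the comparison gives their level in the control libraries and the difference in the overexpression libraries.

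Epithelial sheets are held together by 3 kinds of junction. Tight junctions seal the space between cells through claudins, occludin and their cytoplasmic scaffolds. Adherens junctions join cells through cadherins, which are tied to actin by catenins. Desmosomes join cells through desmogleins and desmocollins, which are tied by plakoglobin, plakophilins and desmoplakin to keratin filaments. Keratin filaments are built from pairs of 1 type I and 1 type II keratin. Luminal breast cells use the simple keratins KRT8, KRT18, KRT19 and KRT7, while basal breast cells use KRT5, KRT14 and KRT17. In epithelial-to-mesenchymal transition (EMT), factors of the ZEB, SNAI and TWIST families repress junction genes and vimentin replaces keratin, whereas GRHL and OVOL factors sustain the epithelial programme.

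Values are FPKM, which count sequenced fragments relative to how long a transcript is and to how many fragments mapped in its library, so levels can be compared between genes per length. FPKM summed to between 589360 and 612711 per library, and read depth is not known. The targeted gene, ZNF207, stood at 69.2, 67.0 and 63.7 FPKM with the control vector and at 885, 786 and 750 FPKM with its own construct (log2 change 3.58, limma adjusted p = 4.03e-09). Among markers of luminal breast cells, GATA3, SPDEF and FOXA1 averaged 236, 169 and 139 FPKM in controls. TFAP2B, AZGP1 and PIP, from the same list, reached at most 0.429 FPKM in any library. Summed over 8 fibroblast markers the level was 9.66 to 12.3 FPKM in controls and 8.45 to 11.5 FPKM in overexpression libraries, most of it COL1A1. Summed over 6 myoepithelial markers it was 17.8 to 21.6 and 18.7 to 21.1 FPKM, most of it ACTA2. The sums were 1.58 to 2.26 and 1.12 to 2.10 FPKM over 6 endothelial markers, and 1.49 to 3.18 and 2.05 to 2.16 FPKM over 7 haematopoietic markers. THY1 and HBB were listed at 0 in all 6 libraries. The sums of these 4 other cell types overlapped between the groups, and the part of such cells in the results was not tested.

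Across the 52 genes the cells carried an epithelial set of transcripts, in which simple keratins stood above the basal keratins KRT5, KRT14 and KRT17. None of the 52 genes passed the threshold for a change with ZNF207. In the controls 12 genes averaged above 100 FPKM, 17 lay between 10 and 100, 11 between 1 and 10, and 12 below 1 FPKM. A gene was tested where 3 or more of the 6 libraries had an FPKM of at least 1, which held for 41 of the 52. The other 11 (KRT5, KRT6B, KRT14, KRT23, CDH2, CDH11, CLDN8, ZEB1, ZEB2, SNAI2 and TWIST1) reached at most 0.335 FPKM in any library and have levels only.

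**Figure D1:**
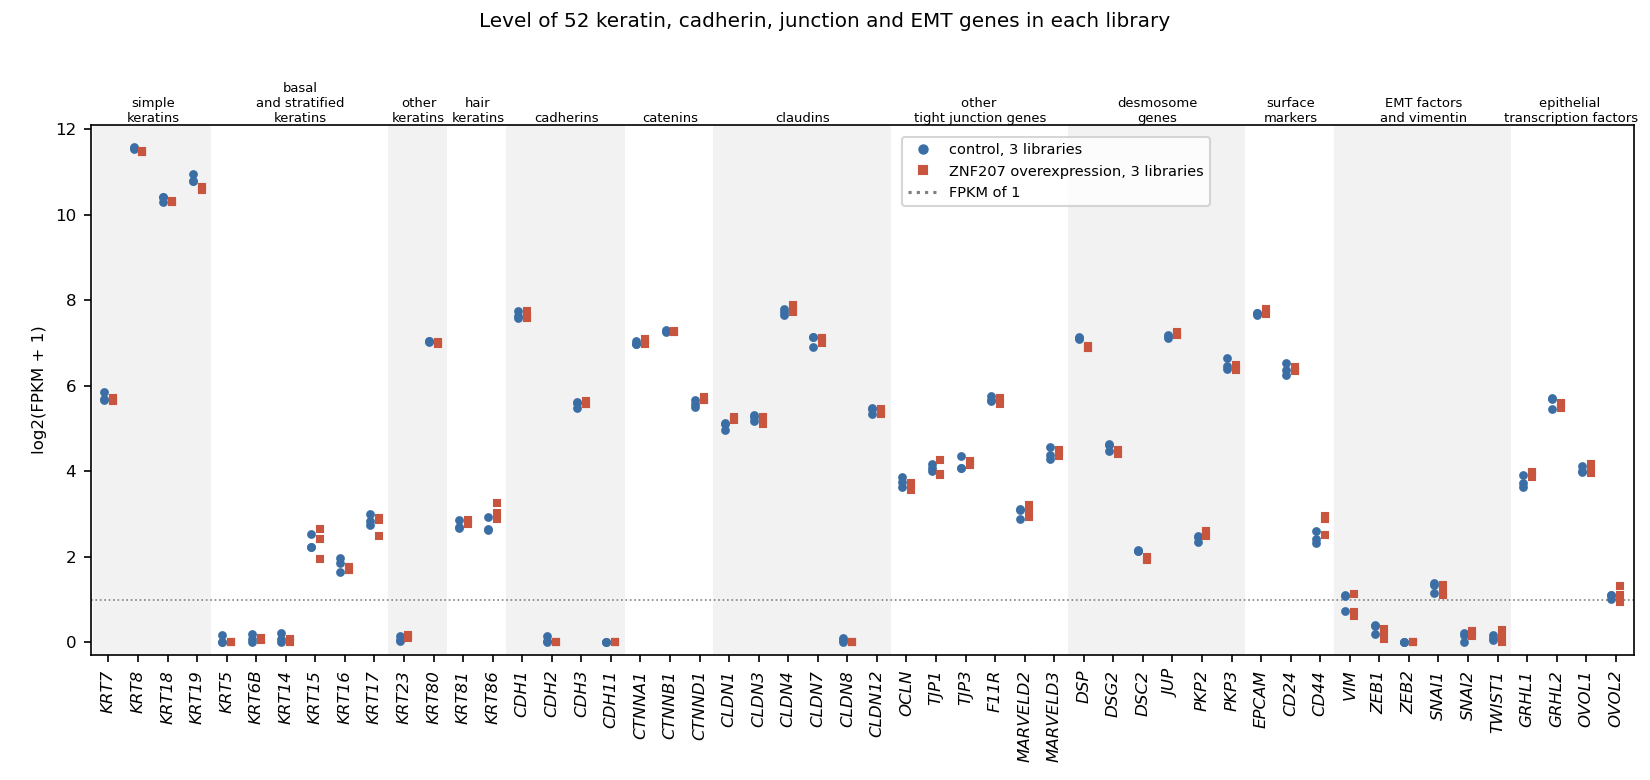
Level of each of the 52 genes as log2(FPKM + 1), with 3 control libraries (circles) and 3 ZNF207 overexpression libraries (squares) for each gene, grouped by class. The dotted line marks an FPKM of 1. KRT8, KRT19 and KRT18 stand highest, and the circles and squares of a gene lie close together throughout. ZEB1, ZEB2, SNAI2 and TWIST1 lie near 0. SNAI1 lies above the dotted line in each library, and VIM lies on both sides of it.

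By limma, 0 of the 41 tested genes had an adjusted p under 0.05, beside 0.212% of all 13185 tested genes. The smallest adjusted p was 0.111. At an unadjusted p under 0.05, 3 genes (CLDN1, KRT86 and CD44) were higher in the overexpression libraries, or 7.32% of the 41 beside 5.08% of all tested genes. At the same limit 2 genes (DSP and KRT19) were lower, or 4.88% of the 41 beside 7.03% of all tested genes. Of these 5, only DSP and KRT19 stayed under 0.05 without overexpression replicate 2, and only DSP, KRT19 and CD44 without overexpression replicate 3. Without control replicate 2, DSP and KRT19 stayed and DSG2 and GRHL2 came under 0.05. KRT19 was not under 0.05 with quantile scaling, nor were CD44 and KRT86 without a filter or with a replicate block. Of the 5, only DSP stayed under 0.05 in all 15 other settings of the analysis. The groups did not overlap, with the overexpression libraries higher, in 2 genes (CTNND1 and CLDN1; 4.88% beside 7.61% of all tested genes). They did not overlap, with the overexpression libraries lower, in 5 genes (KRT8, KRT19, KRT80, DSP and DSC2; 12.2% beside 10.4% of all tested genes). With 41 genes, these shares rest on 2 to 5 genes each and lie near those of all tested genes.

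The estimates were small and of both signs. On the log2(FPKM + 1) scale, where a difference of 1 is a doubling and changes of low genes are understated, 20 of the 41 estimates were above 0 and 21 below. They ran from -0.22 for KRT19 to 0.34 for CD44. Their median was -0.01, the same as the -0.01 of all tested genes. Class medians ran from -0.13 for the 2 tested genes of the EMT class to 0.20 for the 2 hair keratins. The 95% intervals from limma had a median distance of 0.16 from estimate to bound, and for 38 of the 41 genes the whole interval lay within a 1.5-fold difference in either direction. For 29 of them it lay within 1.25-fold. The 3 whose interval reached beyond 1.5-fold were KRT86, CD44 and VIM. In bulk RNA, fewer cells with a transcript and less transcript per cell cannot be told apart.

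**Figure D2:**
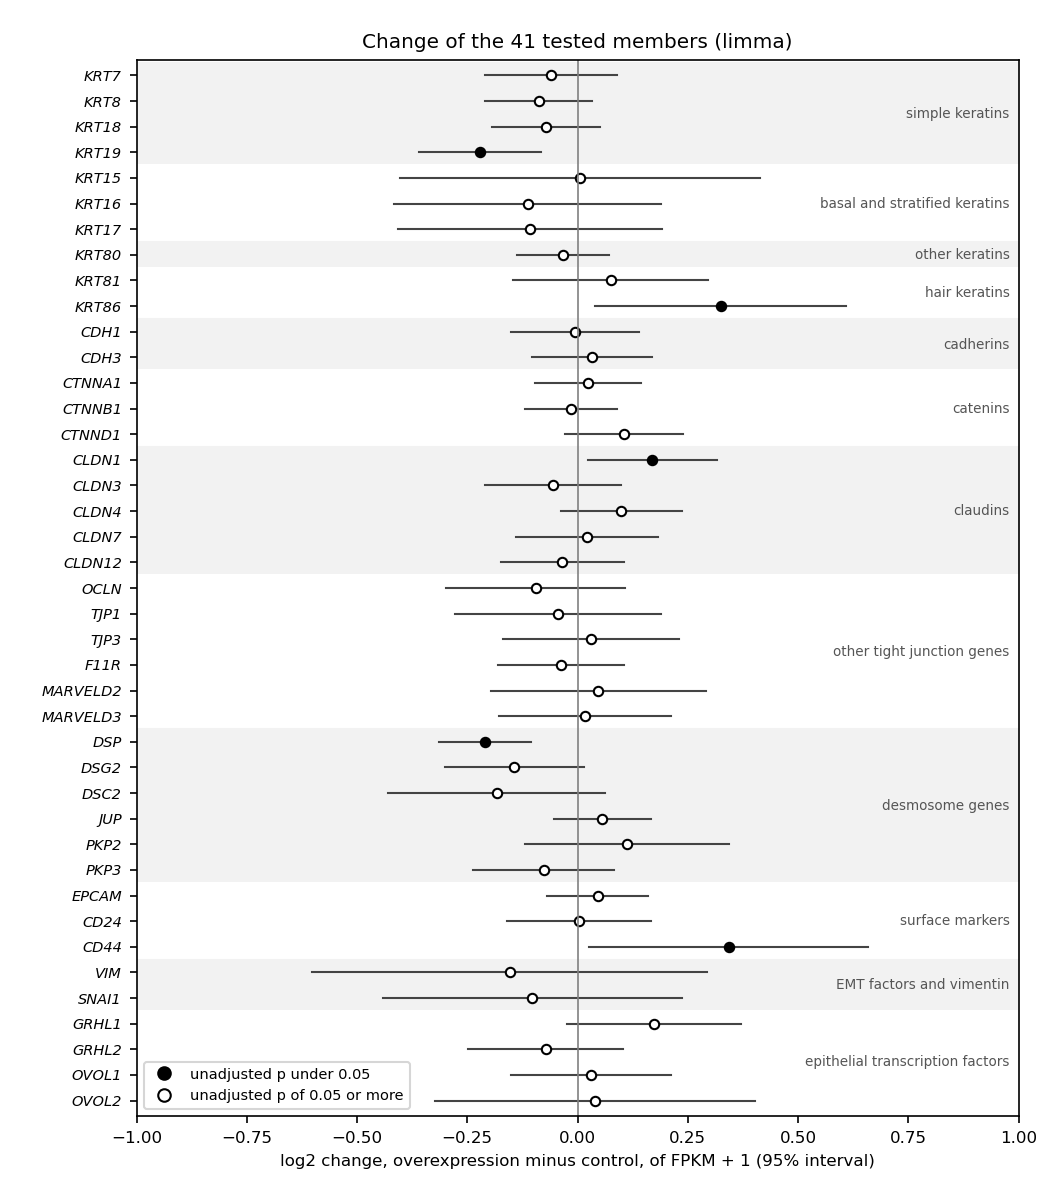
Log2 change (overexpression minus control, FPKM + 1) with its 95% interval for the 41 tested genes, by class. Filled points have an unadjusted p under 0.05. The filled points are KRT19 and DSP below 0 and CLDN1, KRT86 and CD44 above 0, and most intervals cross 0.

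Of the 4 simple keratins, KRT8, KRT18 and KRT19 were among the most abundant transcripts of the cell. KRT8 (chromosome 12, 52897187 to 52949954, minus strand, GRCh38), the type II keratin of simple epithelia, stood at 3003, 3064 and 2974 FPKM in control cells and at 2862, 2834 and 2808 FPKM with ZNF207. It ranked between 10 and 13 among all gene names in the 6 libraries. Every overexpression library lay below every control, by 5.93% between the means. The log2 change was -0.09 (95% interval -0.21 to 0.03, adjusted p = 0.559), which did not pass the test, so no direction is given. It was 0.00 with quantile scaling, which sets a gene of nearly fixed rank at nearly the same value in each library. In the other 14 of 15 settings of the analysis it stayed below 0. KRT18 (chromosome 12, 52948871 to 52952901, plus strand), its type I partner, stood at 1258, 1365 and 1357 FPKM in control cells and at 1263, 1248 and 1273 FPKM with ZNF207. The groups overlapped, since control replicate 1 lay among the overexpression libraries (log2 change -0.07, adjusted p = 0.651). KRT8 and KRT18 share a listed locus and 525 exon bases on opposite strands, and the strand setting of the counting is not given in the sources used here.

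KRT19 (chromosome 17, 41523617 to 41528308, minus strand), the small type I keratin of luminal cells, stood at 1770, 1963 and 1767 FPKM in control cells. In the overexpression libraries it stood at 1602, 1596 and 1515 FPKM. Control replicate 2 was the highest of the 6, and the groups did not overlap. The mean was 14.3% lower with ZNF207 (1833 ± 112 against 1571 ± 48.5 FPKM, SD, n = 3 each). The log2 change was -0.22 (95% interval -0.36 to -0.08), which did not pass the test over all genes (limma adjusted p = 0.196), and it was -0.12 with quantile scaling (adjusted p = 0.406). KRT7, a type II keratin of ducts and glands, stood between 49.5 and 57.3 FPKM in controls and between 49.0 and 51.6 FPKM in overexpression libraries, and the groups overlapped.

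KRT8, KRT18 and KRT19 together made up 96.7% to 96.8% of the FPKM of the 14 keratins in controls and 96.5% in each overexpression library. Type I keratins as a sum stood at 3042, 3340 and 3135 FPKM in control cells and at 2879, 2857 and 2798 FPKM with ZNF207. Type II keratins stood at 3196, 3263 and 3164 FPKM and at 3054, 3024 and 2999 FPKM. Type II thus matched type I per length within each library, at a ratio of 0.98 to 1.05 in controls and 1.06 to 1.07 with ZNF207. The ratio of KRT19 to KRT18, which a single scaling factor per library leaves unchanged, was 1.41, 1.44 and 1.30 in the controls and 1.27, 1.28 and 1.19 in the overexpression libraries. The 2 groups did not overlap in this ratio, which was chosen after the values were seen and has no test. The 14 keratins took 1.03% to 1.08% of all FPKM in controls and 0.949% to 1.01% with ZNF207.

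**Figure D3:**
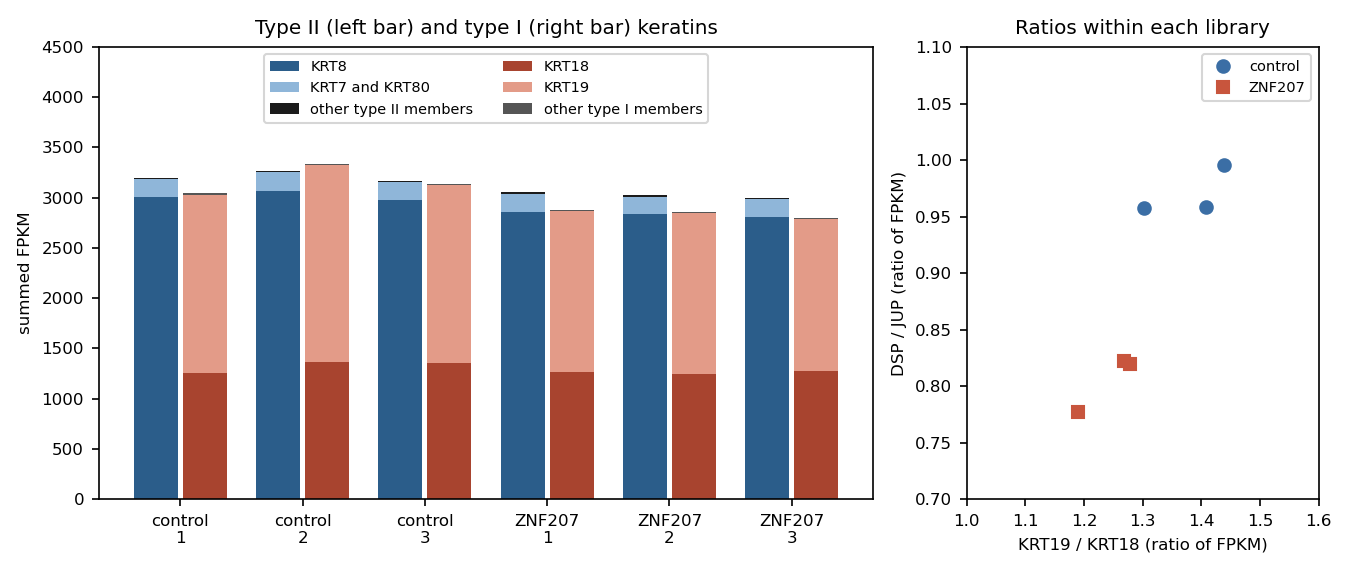
Left: summed FPKM of type II (left bar) and type I (right bar) keratins in each library, with KRT8, KRT18 and KRT19 as the main parts. Right: ratio of KRT19 to KRT18 (x axis) and of DSP to JUP (y axis) in each library, with controls at 1.30 to 1.44 and 0.958 to 0.996 and overexpression libraries at 1.19 to 1.28 and 0.777 to 0.822.

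The 6 basal and stratified keratins of the set were low or close to 0. KRT5 and KRT14, the pair that builds the filaments of basal cells, reached at most 0.122 and 0.161 FPKM, each in control replicate 1. KRT6B, a keratin of activated and stratified epithelia, reached at most 0.146 FPKM. KRT17, of basal and appendage cells, stood at 6.99, 6.12 and 5.69 FPKM in controls and at 6.52, 6.23 and 4.60 FPKM with ZNF207. KRT15 ran from 3.67 to 4.82 FPKM in controls and from 2.86 to 5.32 FPKM with ZNF207, and KRT16 from 2.12 to 2.95 and from 2.23 to 2.37 FPKM. The groups overlapped for KRT15, KRT16 and KRT17, and overexpression replicate 3 was the lowest library for KRT15 and KRT17. KRT80 (chromosome 12, 52168996 to 52192000, minus strand), a type II keratin near junctions, was the only one of the 8 keratins outside the simple class and the hair class above 10 FPKM. It stood at 130, 130 and 131 FPKM in controls and at 129, 125 and 127 FPKM with ZNF207, groups that do not overlap but whose means differ by only 2.22%. KRT23 reached at most 0.121 FPKM.

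The hair keratins KRT81 and KRT86, type II keratins of the hair shaft, were both transcribed at a low level. KRT86 (chromosome 12, 52249300 to 52309163, plus strand) stood at 6.63, 5.26 and 5.16 FPKM in control cells and at 6.44, 7.19 and 8.49 FPKM with ZNF207. Control replicate 1 lay above overexpression replicate 1, so the groups overlapped. Its log2 change was 0.33 (95% interval 0.04 to 0.61, limma adjusted p = 0.341). KRT81 stood at 5.51, 6.29 and 5.40 FPKM and at 6.31, 6.09 and 5.86 FPKM, with overlap. Their transcripts are 96.6% identical over 1325 bases and each shares its listed locus with 9 other rows, so how reads were divided between them is uncertain. KRT16 and KRT17 also have near copies among pseudogenes, whose rows averaged at most 0.0285 FPKM.

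Adherens junction genes gave estimates between -0.02 and 0.11. CDH1 (listed locus on chromosome 16, 68737291 to 68835541), E-cadherin, the main adhesion molecule of epithelia, stood at 196, 190 and 215 FPKM in control cells and at 195, 190 and 213 FPKM with ZNF207. Its log2 change was -0.01 (95% interval -0.15 to 0.14, adjusted p = 0.981), an interval that spans at most 10.1% more FPKM + 1. CDH3, P-cadherin, stood at 48.1, 43.6 and 47.6 FPKM and at 46.4, 46.9 and 49.3 FPKM. The ratio of CDH1 to CDH3 was 4.06 to 4.51 in controls and 4.06 to 4.31 with ZNF207. CDH2, N-cadherin, reached 0.114 FPKM in 1 control and was listed at 0 in all 3 overexpression libraries, and CDH11, a mesenchymal cadherin, was listed at 0 in all 6.

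The catenins were abundant. CTNNB1 (chromosome 3, 41194741 to 41260096, plus strand), beta-catenin, which binds cadherin tails and also acts in WNT signalling, stood at 155, 151 and 157 FPKM in controls and at 153, 152 and 153 FPKM with ZNF207. Its log2 change was -0.02 (95% interval -0.12 to 0.09, adjusted p = 0.932). CTNNA1 (chromosome 5, 138610967 to 138935034, plus strand), alpha-catenin, which links the complex to actin, ran from 124 to 132 FPKM and from 124 to 135 FPKM. CTNND1 (chromosome 11, 57753243 to 57819546, plus strand), p120-catenin, which stabilises cadherins at the membrane, stood at 49.6, 44.5 and 46.5 FPKM and at 49.7, 49.7 and 52.1 FPKM. The groups of CTNND1 do not overlap, but control replicate 1 lay just under the lowest overexpression library (adjusted p = 0.52).

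Among the claudins, CLDN4 and CLDN7 made up 74.0% to 76.5% of the summed FPKM of the 6 listed claudins in controls and 75.7% to 76.3% with ZNF207. CLDN4 (chromosome 7, 73799542 to 73832693, plus strand) stood at 199, 209 and 223 FPKM in controls and at 212, 230 and 235 FPKM with ZNF207 (log2 change 0.10, 95% interval -0.04 to 0.24, adjusted p = 0.559). CLDN7 ran from 119 to 140 FPKM and from 127 to 138 FPKM, CLDN3 from 34.8 to 38.6 and from 33.3 to 37.6 FPKM, and CLDN12 from 39.6 to 43.9 and from 39.7 to 42.6 FPKM. These 4 claudins overlapped between groups, and CLDN8 reached at most 0.0815 FPKM.

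CLDN1, a barrier-forming claudin, differed most within its class. It stood at 33.9, 30.0 and 33.2 FPKM in control cells and at 35.8, 36.2 and 37.5 FPKM with ZNF207. All 3 overexpression libraries lay above all 3 controls, and the mean was 12.8% higher (32.4 ± 2.06 against 36.5 ± 0.883 FPKM, SD, n = 3 each). The log2 change was 0.17 (95% interval 0.02 to 0.32), which did not pass the test over all genes (limma adjusted p = 0.33). Over 15 other settings of the analysis it ran from 0.12 to 0.20, with an adjusted p of 0.193 or more.

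The remaining tight junction genes overlapped between the groups in every case. TJP1 (chromosome 15, 29699367 to 29968865, minus strand), the scaffold ZO-1, stood at 15.8, 15.2 and 16.9 FPKM in controls and at 14.2, 14.1 and 18.3 FPKM with ZNF207. Overexpression replicate 3 was the highest library and the other 2 the lowest (log2 change -0.04, 95% interval -0.28 to 0.19, adjusted p = 0.906). OCLN, occludin, ran from 11.3 to 13.6 FPKM and from 10.7 to 12.2 FPKM, and shares 99.7% identity over 679 bases with the pseudogene OCLNP1, whose row averaged 0.181 FPKM. TJP3, the scaffold ZO-3, ran from 15.9 to 19.4 and from 16.7 to 17.8 FPKM. F11R, the adhesion molecule JAM-A, ran from 48.9 to 53.5 and from 46.4 to 51.6 FPKM. MARVELD2, tricellulin of 3-cell contacts, ran from 6.40 to 7.66 and from 6.68 to 8.32 FPKM, and its relative MARVELD3 from 18.4 to 22.9 and from 19.5 to 21.4 FPKM.

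Desmosome genes held the smallest p of the set. DSP, desmoplakin, which anchors keratin filaments to the desmosome, stood at 136, 137 and 139 FPKM in control cells and at 121, 118 and 117 FPKM with ZNF207. The 2 groups were tight and did not overlap, and the mean was 13.6% lower (137 ± 1.88 against 119 ± 2.08 FPKM, SD, n = 3 each). The log2 change was -0.21 (95% interval -0.31 to -0.10), with the smallest adjusted p of the 41 genes, 0.111 by limma. It ran from -0.22 to -0.19 over 15 other settings, none of them past the threshold.

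The desmosomal cadherins DSC2 and DSG2, which span the gap between cells, also had estimates below 0, and their tests are given after their values were seen. DSC2, desmocollin 2, stood at 3.40, 3.41 and 3.46 FPKM in controls and at 2.99, 2.92 and 2.79 FPKM with ZNF207, without overlap (log2 change -0.18, 95% interval -0.43 to 0.06, adjusted p = 0.549). DSG2, desmoglein 2, stood at 23.6, 21.3 and 23.9 FPKM and at 21.6, 20.1 and 20.4 FPKM (log2 change -0.14, 95% interval -0.30 to 0.02, adjusted p = 0.46). Control replicate 2 lay below overexpression replicate 1 for DSG2, so its groups overlapped. Neither gene passed the test.

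Of the armadillo proteins that lie between the cadherins and desmoplakin, JUP and PKP2 had estimates above 0 and PKP3 below 0. JUP (chromosome 17, 41754604 to 41786931, minus strand), plakoglobin, stood at 141, 138 and 145 FPKM in controls and at 147, 143 and 151 FPKM with ZNF207 (log2 change 0.06, 95% interval -0.05 to 0.17, adjusted p = 0.697). PKP2, plakophilin 2, ran from 4.10 to 4.60 and from 4.59 to 5.09 FPKM, and PKP3, plakophilin 3, from 83.1 to 99.2 and from 81.5 to 87.97 FPKM. All 3 overlapped between groups. Within each library the ratio of DSP to JUP was 0.959, 0.996 and 0.958 in controls and 0.822, 0.820 and 0.777 with ZNF207. That ratio was chosen after the values were seen and has no test. The summed FPKM of the 6 desmosome genes was 392 to 403 in controls and 377 to 383 with ZNF207.

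**Figure D4:**
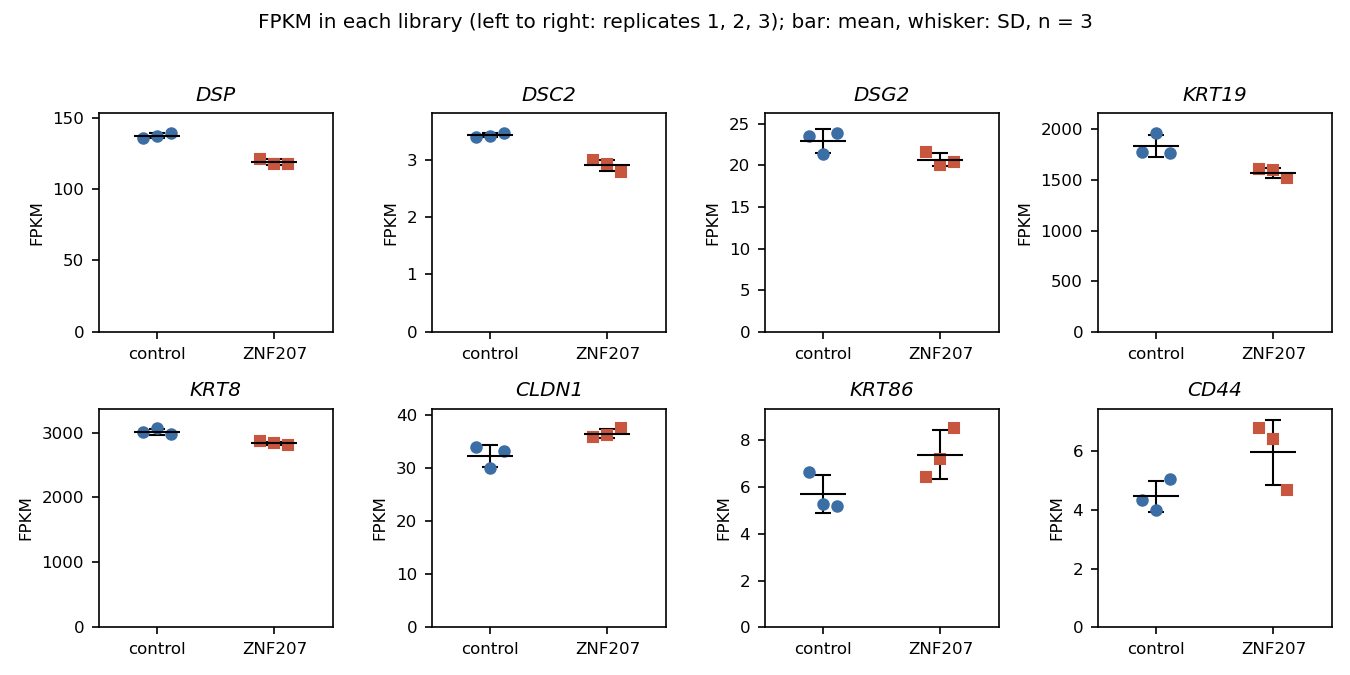
FPKM in each library for 8 genes, with the mean and SD of 3 libraries per group. DSP, DSC2, KRT19 and KRT8 have no overlap with overexpression libraries lower, CLDN1 has none with overexpression libraries higher, and DSG2, KRT86 and CD44 overlap.

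RefSeq promoter sequences (GRCh38.p14) were matched for 24 of the 52 genes, and the 250 bases before each start were searched on both strands for the E-box CACCTG (or CAGGTG), which ZEB and SNAI factors bind, and for AACCGG (or CCGGTT), the core of the Grainyhead motif. The motifs begin and end in letters that do not allow an E-box and a Grainyhead core to overlap. The E-box was in 13 of 44 windows of these genes (29.5%), beside 17.5% of all 35116 windows. The Grainyhead core was in 4 of the 44 (9.09%), beside 5.99% of all windows. A match describes the letters only. Shown are DSP and CLDN1, which had the smallest p of the desmosome genes and of the claudins, and DSG2, a desmosomal cadherin with an estimate on the side of DSP. They were thus picked by p and direction, and a link between motif and direction was not tested. Of the other tested genes with an E-box in a window, CD24, CLDN7, JUP and TJP3 had estimates above 0. DSC2, OCLN and TJP1 had estimates below 0. The window of DSP has E-boxes starting at -178 and -85 and a Grainyhead core at -92. That of DSG2 has E-boxes starting at -232 and -116, and that of CLDN1 has a Grainyhead core at -119 and no E-box. Positions count back from the RefSeq start, and GENCODE 29 places the start of each gene further upstream. Of the 250 bases, 96 in DSP, 134 in DSG2 and 29 in CLDN1 lie inside the GENCODE gene, among them the DSP motifs at -92 and -85 and the DSG2 E-box at -116. Only the bases before the GENCODE start are printed, for DSP at chr6:7541421-7541574 (plus strand), DSG2 at chr18:31497927-31498042 (plus strand) and CLDN1 at chr3:190322476-190322696 (minus strand). Sequences run 5′ to 3′, and capitals mark the motifs.
DSP: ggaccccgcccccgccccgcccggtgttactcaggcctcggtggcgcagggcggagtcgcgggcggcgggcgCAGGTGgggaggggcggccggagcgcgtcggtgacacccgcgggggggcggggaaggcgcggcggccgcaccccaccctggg
DSG2: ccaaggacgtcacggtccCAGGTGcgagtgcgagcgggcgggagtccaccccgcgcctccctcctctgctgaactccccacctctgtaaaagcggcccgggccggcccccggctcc
CLDN1: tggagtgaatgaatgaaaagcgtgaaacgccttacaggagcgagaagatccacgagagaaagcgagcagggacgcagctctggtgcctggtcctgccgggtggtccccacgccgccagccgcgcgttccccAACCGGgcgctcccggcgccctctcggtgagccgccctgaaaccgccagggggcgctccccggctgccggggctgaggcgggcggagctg

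Members of the ZEB, SNAI and TWIST families were low. ZEB1 stood at 0.298, 0.142 and 0.335 FPKM in controls and at 0.0645, 0.164 and 0.234 FPKM with ZNF207, and ZEB2 was listed at 0 in all 6 libraries. SNAI2 and TWIST1 reached at most 0.209 and 0.216 FPKM. Other E-box binding factors differed in level, with TCF3 at a mean of 75.3 FPKM, TCF12 at 9.28 FPKM and TCF4 at 0.0250 FPKM in controls. All of these were named after their values were seen. SNAI1 (chromosome 20, 49982999 to 49988886, plus strand) was the highest of the ZEB, SNAI and TWIST members and stood at 1.24, 1.62 and 1.55 FPKM and at 1.52, 1.16 and 1.21 FPKM, with overlap. VIM, vimentin, the intermediate filament of mesenchymal cells, stood at 0.651, 1.11 and 1.14 FPKM in controls and at 0.628, 0.532 and 1.17 FPKM with ZNF207 (log2 change -0.15, 95% interval -0.60 to 0.29, adjusted p = 0.807). Its libraries split within each group, and both groups span nearly the same range. The antisense rows VIM-AS1 and ZEB1-AS1, at means of 3.34 and 3.67 FPKM in controls, share 641 and 366 exon bases with VIM and ZEB1, so reads of the 2 strands may have been assigned to either.

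The epithelial factors were present. GRHL2, a Grainyhead factor that activates junction genes, stood at 50.6, 42.6 and 51.2 FPKM in controls and at 43.4, 47.3 and 46.2 FPKM with ZNF207 (log2 change -0.07, 95% interval -0.25 to 0.10, adjusted p = 0.763). The log2 change of GRHL2 was -0.16 without control replicate 2 (adjusted p = 0.601) and -0.03 without control replicate 3. Its relative GRHL1 ran from 11.5 to 13.97 and from 13.6 to 14.8 FPKM. OVOL1, a zinc finger repressor of EMT factors, ran from 14.9 to 16.3 and from 14.5 to 17.0 FPKM, and OVOL2 from 1.00 to 1.17 and from 0.915 to 1.48 FPKM. All 4 overlapped between groups.

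The surface markers EPCAM and CD24 were high and CD44 low. EPCAM (chromosome 2, 47345158 to 47387601, plus strand), an epithelial adhesion molecule, stood at 206.9, 199.9 and 207.9 FPKM in controls and at 203, 211 and 221 FPKM with ZNF207 (log2 change 0.05, 95% interval -0.07 to 0.16, adjusted p = 0.773). CD24 (chromosome 6, 106969831 to 106975627, minus strand), a glycoprotein of luminal cells, stood at 90.8, 75.0 and 81.6 FPKM and at 86.0, 81.2 and 80.1 FPKM (log2 change 0.00, 95% interval -0.16 to 0.17, adjusted p = 0.992). CD44 (chromosome 11, 35138870 to 35232402, plus strand), the hyaluronan receptor, stood at 4.31, 3.98 and 5.04 FPKM in controls and at 6.76, 6.40 and 4.68 FPKM with ZNF207. Overexpression replicate 3 lay below control replicate 3, so the groups overlapped. The log2 change of CD44 was 0.34 (95% interval 0.03 to 0.66), the largest estimate of the 41, and did not pass the test (limma adjusted p = 0.368). With 1 library left out it ran from 0.26 to 0.48. The lowest was without overexpression replicate 1 (limma adjusted p = 0.572) and the highest without overexpression replicate 3 (adjusted p = 0.287).

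Other genes of the same structures were read from 11 lists of 202 genes, of which 201 were in the table and 103 were tested. None of the 103 passed the threshold by limma, beside the 0.212% of all tested genes given above. At an unadjusted p under 0.05, 5 were higher (4.85%, beside 5.08% of all tested genes) and 6 lower (5.83%, beside 7.03%), and the median log2 change was -0.02. In adherens junctions, with 0 of 16 tested genes changed, PTPRF, a receptor phosphatase that associates with catenins, stood at 75.2 ± 3.52 FPKM in controls and at 67.1 ± 2.65 FPKM with ZNF207 (SD, n = 3 each, limma adjusted p = 0.305). In tight junctions and polarity, with 0 of 27 changed, TJAP1, a tight junction associated protein, stood at 12.02 ± 0.106 and 10.3 ± 0.652 FPKM (adjusted p = 0.345). None of 9 further cadherins, 5 further claudins, 3 further desmosome and plakin genes, 7 hemidesmosome genes and 2 gap junction genes had an unadjusted p under 0.05.

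In the same lists, 3 entries of the further keratin list were tested, among them KRTCAP3, which is no keratin, at 18.1 ± 1.72 and 15.6 ± 0.658 FPKM (adjusted p = 0.378). KRT10, also among them, averaged 10.5 FPKM in controls and 11.9 FPKM with ZNF207, with overlap. Its level lay above that of each basal and stratified keratin of the set. Of 13 further epithelial and EMT regulators 0 changed. EHF, an ETS factor of epithelia, stood at 12.5 ± 1.20 and 15.4 ± 0.486 FPKM (adjusted p = 0.208), and KLF4, a Krüppel-like factor of epithelial differentiation, at 19.4 ± 1.76 and 23.2 ± 1.42 FPKM (adjusted p = 0.267). The splicing factors ESRP1 and ESRP2, which set epithelial splice forms, averaged 80.1 and 34.7 FPKM in controls. Of 6 tested mesenchymal and matrix genes 0 changed, and S100A4, a calcium-binding protein linked to cell motility, stood at 41.8 ± 5.93 and 31.6 ± 1.07 FPKM (adjusted p = 0.145). S100A4 passed the threshold without control replicate 1 (log2 change -0.50, limma adjusted p = 0.0404, against -0.38 with all libraries). Of 12 tested surface and mucin genes 0 changed, with the mucin MUC1 at 62.1 ± 7.76 and 49.5 ± 2.48 FPKM (adjusted p = 0.191) and the adhesion molecule CEACAM1 at 2.05 ± 0.141 and 3.09 ± 0.311 FPKM (adjusted p = 0.228). These 8 genes given with an adjusted p, 3 higher and 5 lower with ZNF207, were picked by a small p. That choice favours groups without overlap, and none of the 8 overlapped. Over all 103 tested genes of the lists, groups did not overlap in 11 higher and 12 lower. The shares of all tested genes were 7.61% higher and 10.4% lower.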

How the data were processed

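RNA was sequenced from 6 libraries of MDA-MB-453. The authors deposited FPKM, 1 column per library, with no pooling of replicates. Bowtie2, RSEM 1.3.1, DESeq2 1.4.5 and build hg38 are named per the submitters' processing notes, with their roles, the annotation and the strand setting not given in the sources used here. Columns named NC were taken as control and columns named 207 as ZNF207, with the final digit as the replicate number, which rests on the names alone.

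Count models were not applied, since FPKM is a normalised unit. Low values did not show the steps of whole reads (between 2 libraries, no single ratio, within 0.1%, held for more than 2.85% of low genes), so depth is unknown and no counting interval is given. Genes that reached an FPKM of 1 in 3 or more libraries (13185) were compared as log2(FPKM + 1) with limma 3.58.1 in R 4.3.3 (mean-variance trend, two-sided, Benjamini-Hochberg over all tested genes, threshold 0.05). On simulated data (13022 genes tested) the fit recovered 62% of 50 genes changed by 0.5 (log2) and 96% of 50 changed by 1, with 10 false calls. The noise was independent between genes, so these shares may be too high for real libraries. The changed genes were drawn from those with a mean log2(FPKM + 1) above 2, and no change under 0.5 was simulated. The shares therefore do not cover low genes or changes as small as those of the members, at most 0.34. Alternatives were another pseudocount, 2 filters, 3 scalings, 2 variance models, a replicate block and each library left out.

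Members, classes and lists were chosen with earlier results of these data known. Tests are given for 13 tested anchor genes fixed by name, for members with an unadjusted p under 0.05, and for the 2 smallest such p of each wider list, except for an item not reported here. Gene coordinates are from GENCODE 29 where the gene lay in its listed locus, promoters from RefSeq, and near copies from BLAST 2.17.0 (95% identity over 200 bases).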

Additional observations from a re-analysis of the deposited data

How the results depend on the processing

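Over 15 alternatives, 0 of the members passed the threshold in any. The median log2 change of the tested members moved by less than the spread between replicates in all 15. The median of the epithelial transcription factors, 0.03, was 0.11 without overexpression replicate 1 and -0.04 without overexpression replicate 3, and that of the other keratins, -0.03, was 0.01 without a filter and -0.01 after rescaling to TPM. The number of members with an unadjusted p under 0.05 was 2 to 5 when 1 library was left out. The number of changed genes among all tested genes, 28, was 4 without a filter, 64 with the filter at an FPKM of 5, 17 with median-of-ratios scaling, 5 without a variance trend and 7 to 33 when 1 library was left out. The cause was not tested. Among the named genes, signs turned for CDH1, CTNNB1, KRT8, CD24 and TJP1, whose estimates lay between -0.09 and 0.00. CDH1 was at 0.0130 after rescaling to TPM and 0.0044 with median-of-ratios scaling, and CTNNB1 at 0.0037 after rescaling to TPM. KRT8 was at 0.0036 with quantile scaling. With 1 library left out, CDH1 ran from -0.0531 to 0.0456, CD24 from -0.0624 to 0.0741 and TJP1 from -0.161 to 0.0163. Without a turn of sign or a pass of the threshold, GRHL2 ran from -0.16 to -0.03, CLDN4 from 0.06 to 0.14, EPCAM from 0.01 to 0.08, KRT18 from -0.11 to -0.02, VIM from -0.31 to -0.05 and KRTCAP3 from -0.25 to -0.13 over the alternatives that tested them. The replicate block gave 145 changed genes and 0 changed members. Libraries of the same number correlated in their deviations at 0.14, 0.01 and 0.17 for numbers 1, 2 and 3, and control replicate 2 correlated best with overexpression replicate 1. The correlations for numbers 1 and 3 were the highest of all pairs of a control and an overexpression library, while that for number 2 lay near 0. The main fit was planned without pairs, and whether the numbers mark pairs is not settled. Genes that did not reach an FPKM of 1 in 3 libraries carry no test, and depth limits what can be said of ZEB1, SNAI2, TWIST1 and the basal keratins.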

Other observations

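Rows named as pseudogenes of KRT8 (51 rows) summed to 7.43, 6.24 and 7.37 FPKM in the controls and to 8.61, 8.74 and 5.95 FPKM in the overexpression libraries. Those of KRT18 (67 rows) summed to 2.07, 2.01 and 1.81 FPKM and to 1.96, 1.57 and 1.61 FPKM. The highest single row was KRT8P12, at a mean of 2.68 FPKM. TFF3, a secreted trefoil peptide of luminal cells on the marker list, stood at 29.1, 37.0 and 28.9 FPKM in controls and at 20.0, 22.5 and 18.4 FPKM with ZNF207, without overlap (log2 change -0.61, limma adjusted p = 0.0618). FGFR4, a receptor tyrosine kinase on the same list, stood at 49.5, 50.9 and 56.1 FPKM and at 57.8, 58.5 and 72.5 FPKM, without overlap (log2 change 0.26, adjusted p = 0.293). Both were chosen after their values were seen.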
